A study of Caenorhabditis elegans with 2 samples.

Results

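The mir-51 family of Caenorhabditis elegans comprises cel-mir-51, cel-mir-52, cel-mir-53, cel-mir-54, cel-mir-55 and cel-mir-56. These 6 genes were taken by name from the 261 microRNA genes annotated on the nuclear chromosomes, which leaves 255 others. The family was chosen on the deposited pooled signal of regions at its genes, so those signals and ranks are given as a description, with no test. For each gene, every deposited region whose summit, the position of highest signal, lay within 2 kb of the annotated hairpin was collected. The data are chromatin immunoprecipitation and sequencing (ChIP-seq) of TBX-8, a T-box transcription factor that acts with its relative TBX-9 in shaping the embryo. All material was whole embryos of strain RW10470, of mixed stage and mixed sex, aged 2.5 hours. The strain carries the transgene st10470, in which tbx-8 is followed by TY1, EGFP and 3xFLAG tags and unc-119(+) marks transformants, on the unc-119(ed3) mutation. An antibody to GFP was used, on pooled embryos, so cells of all types are mixed. There were 2 biological replicates of 1 group, and no comparison between conditions is possible. Cell type markers cannot be read from ChIP regions. The authors called regions on each replicate with a control, and no untagged or input material was used separately here.

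MicroRNAs are short RNAs cut from a hairpin precursor. They guide Argonaute proteins to messenger RNAs, and the bases called the seed, 2 to 8 from the 5′ end, do most of the pairing. Members of the mir-51 family share a seed with the miR-99 and miR-100 microRNAs of other animals. The C. elegans family acts redundantly and is needed for embryonic development, and cdh-4, which encodes a large cadherin, is a reported target in attachment of the pharynx.

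The mature products that define the family are shown because their seed, in capitals, is the feature the 6 genes share; the sequences are from RefSeq on WBcel235.
cel-mir-51: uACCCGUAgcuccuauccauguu
cel-mir-52: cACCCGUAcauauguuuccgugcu
cel-mir-53: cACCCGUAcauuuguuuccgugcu
cel-mir-54: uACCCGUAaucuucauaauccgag
cel-mir-55: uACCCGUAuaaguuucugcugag
cel-mir-56: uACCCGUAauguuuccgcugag

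The seed ACCCGUA was found in 6 of the 458 mature products of the RefSeq table, all of them from the 6 members. It lies on the 5′ arm of the hairpin in cel-mir-51, cel-mir-52 and cel-mir-53, and on the 3′ arm in cel-mir-54, cel-mir-55 and cel-mir-56. The most alike pair was cel-mir-52 and cel-mir-53, with 23 of 24 mature bases identical (95.8%) and hairpins identical over 79.0% of aligned bases. The mature products of cel-mir-55 and cel-mir-56 were identical over 87.0%. The least alike were cel-mir-51 and cel-mir-55, at 47.8%. The longest run of bases shared by the cel-mir-52 and cel-mir-53 hairpins was 17 bases, and the hairpins of the other pairs were identical over 43.6% to 57.1%.

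The family occupies 3 loci on 2 chromosomes, and the loci rather than the genes are the separate observations. cel-mir-51 (IV, 11026013 to 11026112) and cel-mir-53 (IV, 11027593 to 11027691) lie on the minus strand with 1480 bases between them. Their neighbours are alh-3, an aldehyde dehydrogenase gene, and hrg-5. cel-mir-52 (IV, 14034008 to 14034107) lies alone on the plus strand. cel-mir-54 (X, 13144996 to 13145094), cel-mir-55 (X, 13144827 to 13144924) and cel-mir-56 (X, 13144691 to 13144787) fill 404 bp on the minus strand. These last hairpins lie in an intron of the protein-coding gene F09A5.3, which runs on the other strand. The gene cel-mir-55b, no member of the family, is annotated on the opposite strand over cel-mir-55. All coordinates are on WBcel235, the assembly also named ce11.

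The authors deposited 4 lists of regions. The thresholded list, left after comparing the ranks of both replicates, held 521 regions with signals from 75.8 to 571 and a median of 101. These were exactly the 521 highest of the 16355 regions of the pooled list. The lists of replicate 1 (24167 regions) and replicate 2 (20865 regions) include background on purpose, as does the pooled list. The signal has no stated unit, and it was compared only within a list. The depth of the libraries is unknown, since the lists hold no read counts.

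All 6 members had a thresholded region within 2 kb, where 10.7% of all microRNA genes (28 of 261) did. The family was chosen with this count known, so the difference is a description. Within 200 bp the count was 2 members, cel-mir-51 and cel-mir-52, beside 2.68% of microRNA genes (7 of 261). All 6 also had a region of the longer pooled list within 2 kb, as did 64.4% of microRNA genes. Of all 46890 annotated genes, 3.45% had a thresholded and 46.9% a pooled region at that distance. Of 19973 protein-coding genes, 3.04% had a thresholded region within 2 kb of a transcript start. The 6 members share 3 highest regions, 1 for each locus, and these are described in turn.

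The highest region of the family lay at cel-mir-52 (IV, 14033860 to 14034194). Its signal was 348 in the pooled list, where it ranked 9, with a q-value of 0.00448. The signal was 199 in the list of replicate 1, where it ranked 6, and 148 in that of replicate 2, where it ranked 11. The region thus stood among the 11 highest of every list. Its summit lay 22 bp upstream of the hairpin, and the summits of the replicates lay within 1 bp of it. The summit fell in exons of 2 unclassified noncoding RNA genes of the Y37A1B series, 1 on each strand, and the minus-strand gene runs into the hairpin. The nearest protein-coding start, that of Y37A1B.7, was 9794 bp away.

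The 100 bp on either side of that summit are shown on the strand of cel-mir-52, because the summit sits directly before the hairpin; capitals mark the hairpin's first 79 bases (WBcel235, chrIV:14033886-14034086, plus strand).
cel-mir-52 summit: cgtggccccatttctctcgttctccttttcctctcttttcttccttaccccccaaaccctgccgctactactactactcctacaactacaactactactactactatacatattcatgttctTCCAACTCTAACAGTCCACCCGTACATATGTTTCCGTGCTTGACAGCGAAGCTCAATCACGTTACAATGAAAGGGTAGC

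A further 3 pooled regions lay within 2 kb of cel-mir-52, and they were much lower. One overlapped the first and began at the same base, with its summit 83 bp downstream of the hairpin. It had a signal of 107 and rank 228 and was also thresholded, ranking 132 in replicate 1 (signal 74.1) and 713 in replicate 2 (signal 34.4). The replicates therefore ranked this downstream region further apart than the upstream one, though their summits lay within 3 bp of the pooled summit. A region 1006 bp upstream had a pooled signal of 53.8 and rank 1465. The last, 865 bp downstream, had a signal of 28.1 and rank 15447 and was matched within 100 bp in replicate 2 alone. The surroundings hold 8 piRNA genes within 2 kb and 37 within 5 kb of cel-mir-52; piRNAs are small germline RNAs bound by the Piwi protein PRG-1. No piRNA gene lay within 5 kb of the other 5 members.

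The region between cel-mir-51 and cel-mir-53 was nearly as high (IV, 11026045 to 11026314). Its signal was 334 in the pooled list, where it ranked 10, with a q-value of 0.00448. It was 187 in replicate 1, at rank 9, and 143 in replicate 2, at rank 12. It came after the cel-mir-52 region in all 3 lists. The pooled list gives no error for a signal, so the order of these neighbours is not shown to go beyond their spread. Their q-value of 0.00448 was also that of the lower cel-mir-52 region at rank 228, so it does not set them apart. The summit lay 85 bp upstream of the cel-mir-51 hairpin and 1396 bp downstream of cel-mir-53, and it moved by 2 bp at most between lists. cel-mir-53 therefore had this region within 2 kb only from its downstream side, and within 500 bp its highest pooled signal was 38.4. The thresholded regions of the family on IV were narrow, at 335 bp and 342 bp for cel-mir-52 and 270 bp for cel-mir-51. All belonged to the 26 thresholded regions (4.99%) under the full width of 460 bp.

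That summit fell inside F36H1.17 (IV, 11026131 to 11026219), an unclassified noncoding RNA gene of 89 bases on the minus strand that ends 18 bases before cel-mir-51. The summit was base 23 of this gene. The nearest protein-coding start, that of hrg-5, was 2988 bp away. The 100 bp on either side are shown on the strand of cel-mir-51 (WBcel235, chrIV:11026097-11026297, minus strand). Capitals mark matches to the A-box and B-box, the internal promoter elements of tRNA genes at which the RNA polymerase III factor TFIIIC binds; this search was added after the sequence had been seen.
cel-mir-51 summit: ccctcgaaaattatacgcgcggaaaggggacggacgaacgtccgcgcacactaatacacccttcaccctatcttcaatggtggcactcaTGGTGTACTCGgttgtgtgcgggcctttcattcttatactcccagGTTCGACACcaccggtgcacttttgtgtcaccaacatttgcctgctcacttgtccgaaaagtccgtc

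The A-box match begins at base 12 of F36H1.17 and the B-box match (GTTCGANNC) at base 57, with the first TTTT at base 77. The windows at both thresholded cel-mir-52 summits and at the highest summit of the X cluster held neither box. Any A-box was present in 45.3% of thresholded and 23.5% of pooled windows, and any B-box in 22.6% and 2.97%. An A-box followed by a B-box on the same strand, with 20 to 60 bases between them, was present in 20.5% of all thresholded windows and 1.55% of pooled windows. It was present in 67.4% of the 129 thresholded windows with a tRNA gene within 200 bp of the summit. It was present in 20 of the 392 others (5.10%), and by signal the cel-mir-51 region was the third of these 20. No tRNA, snoRNA, snRNA or rRNA gene lay near it; the nearest was a snoRNA gene, M7.15, at 56950 bp. A match is a description of letters and not a binding site.

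Between cel-mir-51 and cel-mir-53 a second pooled region had a signal of 38.4 and rank 5602, with a q-value of 0.676. Its summit lay 497 bp downstream of cel-mir-53 and 984 bp upstream of cel-mir-51. It ranked 23242 in replicate 1 (signal 14.5) and 2332 in replicate 2 (signal 25.5). Upstream of cel-mir-53, a region 801 bp away in an exon of hrg-5 was listed in replicate 2 alone, with a signal of 14.6 and rank 17281. No pooled region thus lay within 2 kb upstream of cel-mir-53.

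**Figure D1:**
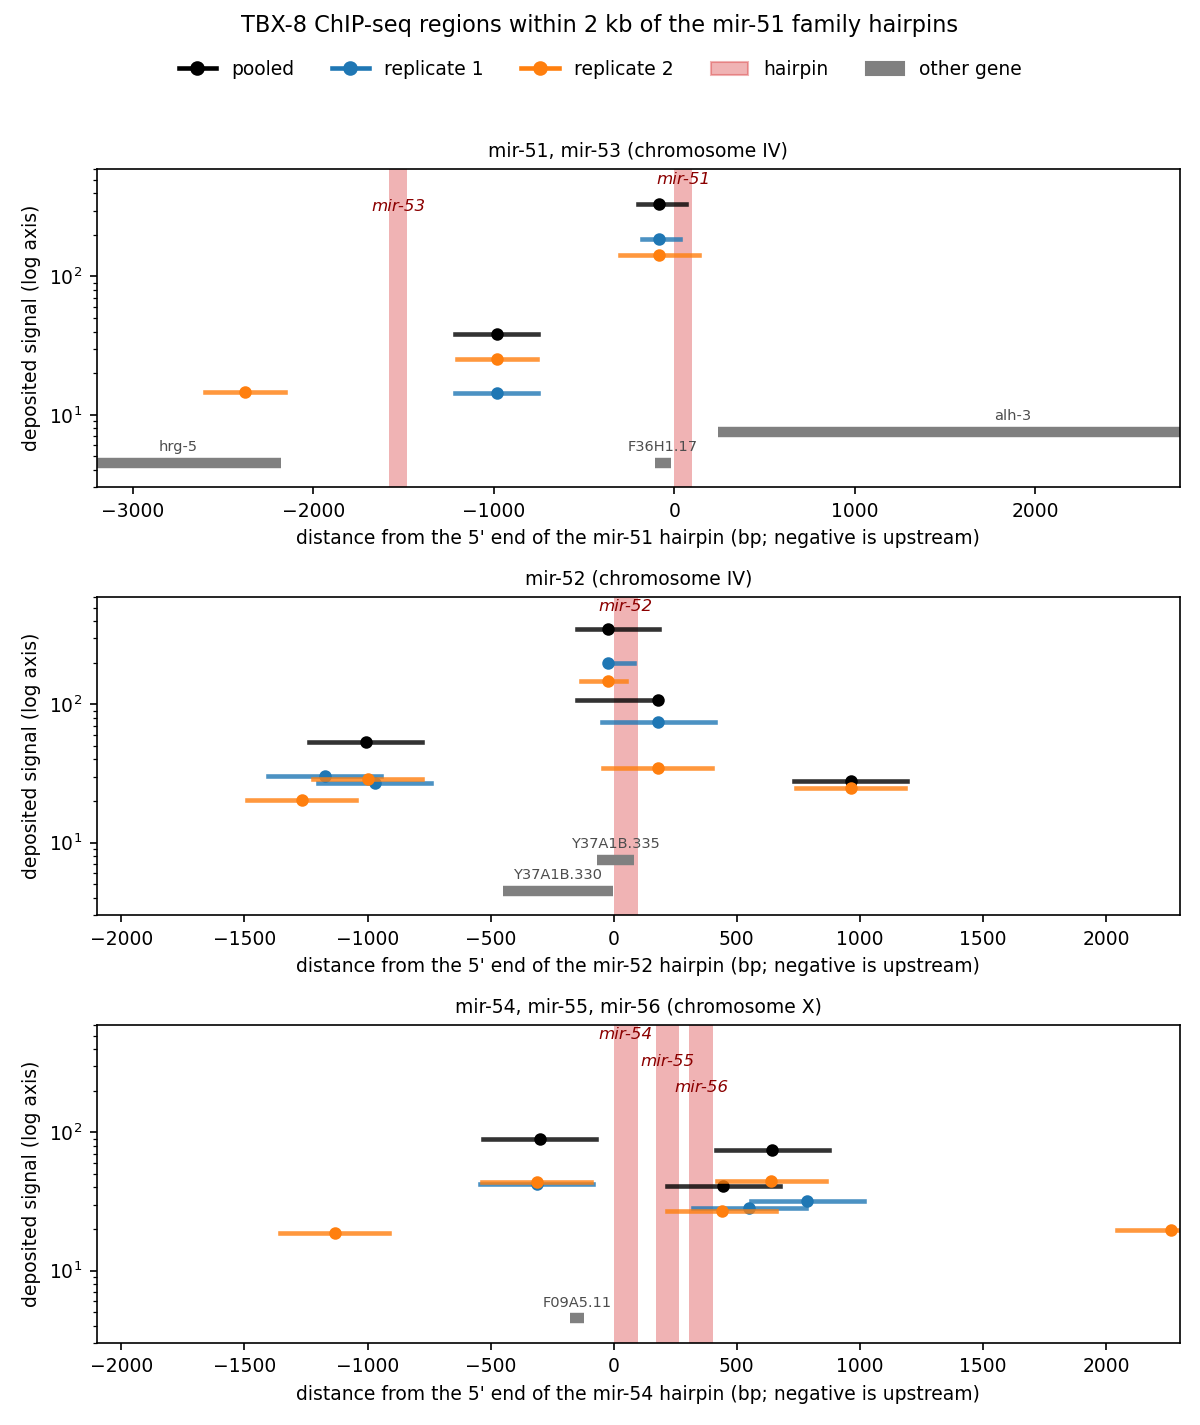
Regions within 2 kb of the 6 hairpins at the 3 loci, with position in bp from the 5′ end of the first hairpin named under each panel and deposited signal on a log axis; dots are summits, bars are the region widths, colours are the lists and grey bars are other genes. The pooled summits with signals of 348 and 334 sit just upstream of mir-52 and mir-51, and on X the summits with signals of 89.8 and 73.9 flank the cluster (F09A5.3 spans the whole X panel and is not drawn).

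The highest region at the X cluster (X, 13145164 to 13145623) lay upstream of all 3 hairpins. Its signal was 89.8 in the pooled list, where it ranked 343, with a q-value of 0.0073. It was 41.9 in replicate 1, at rank 590, and 43.9 in replicate 2, at rank 346. It was in the lower part of the thresholded list, and well below the highest regions at cel-mir-52 and cel-mir-51 in all 3 lists. The summit lay 300 bp upstream of cel-mir-54, 470 bp upstream of cel-mir-55 and 607 bp upstream of cel-mir-56. It was in an intron of F09A5.3, whose start was 3793 bp away, and both replicates placed it 13 bp further upstream.

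A pair of lower regions lay on the downstream side of the X cluster. The first, 242 bp downstream of cel-mir-56, had a pooled signal of 73.9, rank 565 and a q-value of 0.0115. It was thus just outside the thresholded list of 521, whose lowest signal was 75.8. Replicate 2 ranked it 335 (signal 44.4), above the upstream region. Replicate 1 ranked it 2569 (signal 28.5), with the summit 95 bp away. A higher region of replicate 1, 384 bp downstream of cel-mir-56 (signal 31.7, rank 1616), lay beyond the 100 bp limit for a match. The replicates therefore ranked the upstream and the downstream region of the cluster in opposite order. In replicate 2 these regions were nearly tied, at ranks 346 (signal 43.9) and 335 (signal 44.4). No error is given for a signal, so that order is not shown to go beyond their spread. The second, 41 bp downstream of cel-mir-56, had a signal of 40.8 and rank 4442, and only replicate 2 listed it within 100 bp (signal 27.0).

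The sequence at the upstream summit of the X cluster is shown on the strand of cel-mir-54 with words fixed for the search in capitals (WBcel235, chrX:13145294-13145494, minus strand).
cel-mir-54 summit: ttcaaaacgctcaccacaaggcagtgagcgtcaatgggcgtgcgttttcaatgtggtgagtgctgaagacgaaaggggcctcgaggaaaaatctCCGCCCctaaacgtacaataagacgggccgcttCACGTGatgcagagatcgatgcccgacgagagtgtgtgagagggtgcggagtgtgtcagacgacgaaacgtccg

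The words searched on both strands were the repeat GAGAGA, the GC-rich word GGGCGG, the E-box CACGTG, and GGTGTG as the core of the T-box site. CACGTG reads the same on both strands, and apart from that no match overlapped another. The X window held GGGCGG on the other strand at base 95, where it reads CCGCCC, and CACGTG at base 128. GGGCGG was present in 14.6% of thresholded and 6.82% of pooled windows of this length, and CACGTG in 4.03% and 4.28%. The cel-mir-52 window held GAGAGA on the other strand at base 13, a word present in 32.2% of thresholded and 16.3% of pooled windows. The cel-mir-51 window and that of the downstream cel-mir-52 summit held none of the 4 words. GGTGTG was in none of the 4 windows at thresholded summits of the family, and in 9.60% of thresholded and 6.89% of pooled windows. The GC content was 52.7% at the cel-mir-51 summit, 45.3% at the upstream and 38.8% at the downstream cel-mir-52 summit, and 55.2% at the X summit, beside medians of 46.8% over thresholded and 39.3% over pooled windows. The windows at the 4 summits had little sequence in common, with longest shared runs of 7 to 11 bases.

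**Figure D2:**
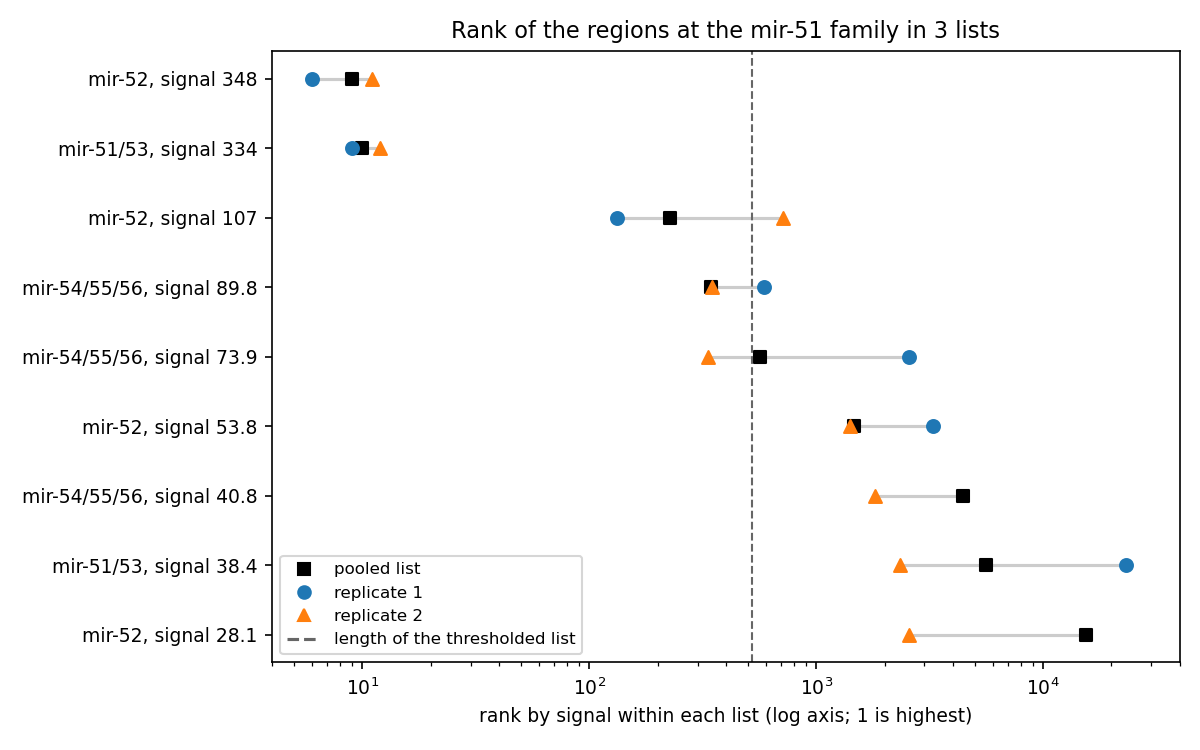
Rank by signal within each of 3 lists (log axis, 1 is highest) for the 9 distinct pooled regions within 2 kb of the family, labelled by gene and pooled signal; squares are the pooled list, circles replicate 1, triangles replicate 2, and the dashed line is the length of the thresholded list. The regions with pooled signals of 348 and 334 stay between ranks 6 and 12 in every list, and lower regions spread further, with a missing symbol where no summit lay within 100 bp.

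The regions just outside the 2 kb limit were low. The next pooled region from cel-mir-52 lay at 2068 bp with a signal of 30.7, and that from cel-mir-56 at 2116 bp with a signal of 33.0. From cel-mir-51 the next lay at 5809 bp with a signal of 48.6. The distance limit therefore left out no region near the height of the 3 described.

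Set beside other microRNA genes, the 3 members on IV had the highest pooled signals of all 261 genes. For cel-mir-53 this is the region shared with cel-mir-51, 1396 bp downstream, and within 500 bp its highest pooled signal was 38.4. Of the 255 microRNA genes outside the family, 162 had a pooled region within 2 kb, and the signal of the highest one ranged from 27.6 to 143 with a median of 43.0. Over the 6 members it ranged from 89.8 to 348 with a median of 212, though only 3 separate values enter this. The 3 members on IV, and 0 other microRNA genes, lay within 2 kb of one of the 50 highest pooled regions. The highest region near another microRNA gene ranked 114 (signal 143), near cel-mir-237, a relative of lin-4. Its summit lay 1960 bp downstream of that hairpin, with a tRNA gene within 200 bp of the summit. The members on X lie in the range of other genes with a thresholded region.

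**Figure D3:**
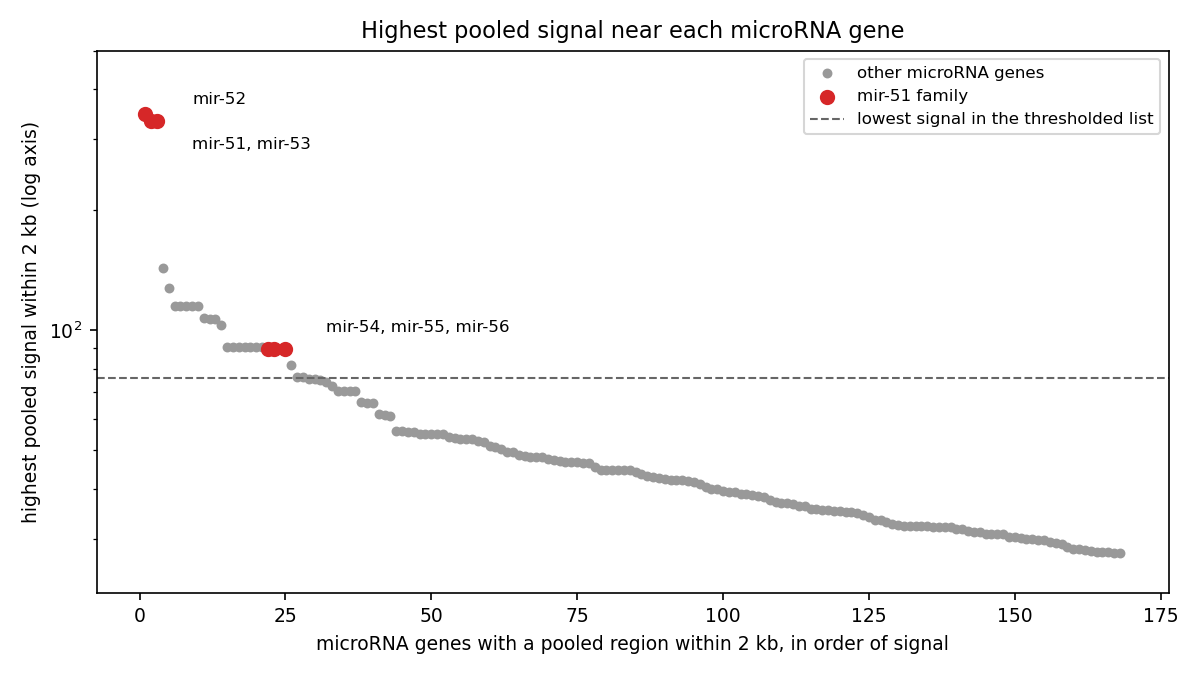
Highest pooled signal within 2 kb (log axis) of each of the 168 microRNA genes that have a pooled region there, in order of signal; red points are the mir-51 family, grey points other microRNA genes, and the dashed line is the lowest thresholded signal. The 3 members on IV, at 348 and 334 (mir-51 and mir-53 share the region at 334), stand above the highest other gene, at 143. The 3 on X, at 89.8, lie among the others.

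The 28 microRNA genes with a thresholded region shared 13 distinct highest regions, since many lie in clusters. cel-mir-55b shares the X region of the family, with its signal of 89.8. Of the 22 outside the family (8.63% of 255), 8 had a highest region with a tRNA gene within 200 bp of its summit, and 0 of the 6 members did. Counted as regions, these were 3 of the 11 highest regions of the other genes and 0 of the 3 of the members. A thresholded region lay within 2 kb of 29.2% of the annotated tRNA genes, beside 19.4% for snoRNA and 11.6% for snRNA. The nearest gene of these small RNA classes to the cel-mir-52 summit was a tRNA gene 20110 bp away, and that to the X summit a tRNA gene 24063 bp away. In 5 of 6 members the highest summit lay upstream of the hairpin, cel-mir-53 being the exception. The members on X share a single summit, and the summit of cel-mir-53 is also that of cel-mir-51. Of the 22 outside the family some had it upstream too, such as cel-mir-90 and cel-mir-62, and others downstream or inside the hairpin. The side is therefore not particular to the family.

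**Figure D4:**
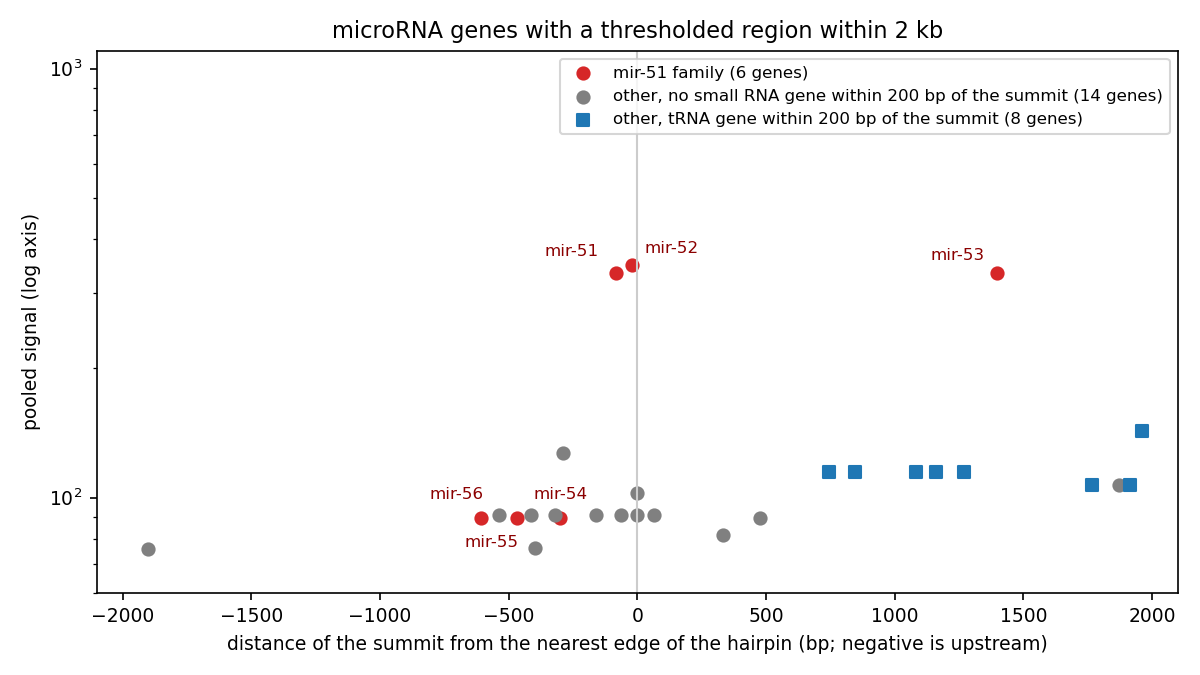
Pooled signal (log axis) against the distance in bp of the highest summit from the hairpin, negative upstream, for the 28 microRNA genes with a thresholded region within 2 kb; red circles are the mir-51 family, grey circles other genes and blue squares other genes with a tRNA gene within 200 bp of the summit. Red points lie upstream except mir-53 at 1396 bp downstream, and the 8 blue squares all lie downstream.

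The microRNA genes most like each member were found by the distance between log10 ranks in the pooled list and both replicate lists, 3 values for each gene. For cel-mir-51, cel-mir-52 and cel-mir-53 no gene was close. The nearest was cel-mir-237, at a distance of 1.98 from cel-mir-51 and cel-mir-53 and 2.11 from cel-mir-52, with ranks of 114, 63 and 329. cel-mir-90 (ranks 149, 197 and 287) and cel-mir-1018 (ranks 191, 539 and 116) followed, the last tied with other genes at the same region. The highest summits for cel-mir-237 and cel-mir-1018 lay 1960 bp and 1268 bp downstream, each with a tRNA gene within 200 bp. Genes whose highest pooled region is that of a member were left out, which removed cel-mir-55b, since it has the X region itself. Of the genes left, the nearest to the X cluster was cel-mir-62, at a distance of 0.22, with ranks of 509, 550 and 457. Next came cel-mir-1824 at 0.32 (signal 81.6) and cel-mir-58a at 0.36 (signal 72.6). The pooled rank is made from the same reads as the replicate ranks, so these 3 values are not independent.

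Other conserved microRNA families differed in how many genes had a thresholded region. In the let-7 family, whose members time larval development, 0 of 7 genes had one, and the highest pooled signal was 48.5. In the mir-35 family, which is needed in the embryo as the mir-51 family is, 7 of 8 genes had one. All 7 rested on a single region with its summit inside cel-mir-36 (signal 90.9, rank 332), which ranked 2590 in replicate 1 and 134 in replicate 2. That signal was close to the 89.8 of the X cluster, whose replicate ranks lay nearer to each other. In the mir-58 family 0 of the 5 genes matched by name had one, with a highest pooled signal of 75.0, just below the threshold. In the lin-4 family cel-mir-237 had one, at a summit 1960 bp downstream with a tRNA gene within 200 bp, and lin-4 had none. Of 6 single microRNAs (mir-1, mir-2, mir-71, mir-228, mir-124 and lsy-6), 0 had one. All these counts stand beside the 10.7% of microRNA genes overall.

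Of 15 protein-coding genes of microRNA processing and action, 4 had a thresholded region within 2 kb of a start, beside 3.04% of protein-coding genes. They were vig-1, which encodes a component of the silencing complex (signal 117, 421 bp), lin-28, an RNA-binding inhibitor of let-7 maturation (signal 107, 46 bp), nhl-2, a cofactor of the complex (signal 94.6, 868 bp), and ain-1, a GW182 protein that joins Argonaute to repression factors (signal 83.6, 960 bp). Each was above the 89.8 of the X cluster except ain-1, and none reached 334. The first 3 were matched in both replicates, and ain-1 in replicate 1 alone. The Drosha gene drsh-1, dcr-1 and the Argonaute genes alg-1 and alg-2 had no thresholded region. The reported family target cdh-4 had none either, with a highest pooled signal of 30.6 at rank 12125, 1836 bp from a start.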

How the data were processed

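Per the deposited file descriptions, the authors called regions on each replicate with a control, on pooled alignments, and after an irreproducible discovery rate step, on ce11. The authors' signal value and −log10 q-value were used as deposited, with the deposited summit offset. Neither aligner nor caller is given in the sources used here. Per the labels, DNA was sonicated to 200 to 800 bp.

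A summit was assigned to a hairpin within 2000 bp (nearest edge, Ensembl release 115), and across lists within 100 bp. The assignment was tested on simulated data, with 0 of 200 placements wrong. Mature RNAs are from RefSeq (WBcel235). Python 3.11.15, numpy 2.4.6, pandas 2.3.3, Biopython 1.88 and matplotlib 3.10.9 were used. Named genes are the 6 members, genes at their summits, the nearest starts, the 3 most alike microRNA genes by rank, and list genes with thresholded regions (up to 6 a list); others were named after their values were seen. Members, lists and words were chosen with earlier results of these data known, so no test was run. Depth is unknown.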

Additional observations from a re-analysis of the deposited data

How the results depend on the processing

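Of 53 alternatives, 41 left a count or share within 1.5 times its value, a signal equal, or a rank within 1 SD of the replicate ranks. Members that share a region enter this tally separately, so the alternatives are not independent. Some could not change the result, such as a wider limit for a count that already held all 6 members. All 6 members had a thresholded region within 2 kb. This count fell to 2 within 200 bp, 4 within 500 bp and 5 within 1 kb. With the upper part of the thresholded list it fell to 3. It ranged from 3 to 6 when 1 replicate was left out. There the 521 highest regions of the other replicate stood in for the thresholded list. The X region ranked 590 in replicate 1, outside that limit, though its q-value there was 0.0144. The share of microRNA genes, 10.7%, became 2.68% within 200 bp, 5.75% within 500 bp, 7.28% within 1 kb, 13.0% within 5 kb, 15.3% with pooled regions at q below 0.05 and 5.36% with the upper part of the list, and ranged from 4.21% to 12.3% when 1 replicate was left out. A pooled region lay within 200 bp of 4 members. Within 500 bp the highest pooled signal was 38.4 at cel-mir-53 and 73.9 at cel-mir-56. Without replicate 2 the X cluster ranked 590. Without replicate 1 its highest region was the downstream one, at 335, with the upstream one close, at 346. The cause was not tested; by construction, a shorter distance or list keeps fewer regions. No paired analysis was possible because there is 1 group. With 2 replicates and no read counts, no error can be set on a signal.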
